A study of Mus musculus with 12 samples.

Results

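The proteasome is the barrel-shaped protease that degrades ubiquitin-tagged proteins in the cytosol and nucleus, and its genes were described here across 4 T cell fractions of the mouse Peyer's patch. The members were all probes whose symbol begins with Psma, Psmb, Psmc, Psmd, Psme, Psmf or Psmg and a digit and which had a listed value in every array of 1 or more fractions. This gave 53 of the 53 probes with such a symbol, for 49 of 49 genes, among 23473 probes and 16942 genes tested in all. Every member was detected on all 12 arrays, so the detection filter removed none of them. Psmc3ip and Psme3ip1 meet the symbol rule but are named for proteins that interact with a subunit, and they are kept apart. No probe carries the symbol Psme2, and the probe of Psme2b may also read Psme2.

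The cells came from C57BL/6 mice aged 10 weeks of both sexes, for which the labels name no treatment or other genotype, with 3 to 5 animals pooled and a stated purity above 98% after the sort. Cells gated as γδ were positive for the γδ receptor and negative for TCRβ. The other fractions carry TCRβ: DN cells have neither CD4 nor CD8β, CD4 cells have CD4, and CD8 cells have CD8β. CD8α was not part of the gate. Each fraction has 3 arrays, hybridised with Cy5-labelled RNA, and levels are given as the log2 of the background-corrected, quantile-normalised spot signal. A level can be compared between arrays for the same probe and not between probes.

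In the 20S core particle, a ring of α subunits gates each end and a ring of β subunits holds the active sites. The 19S regulatory particle, built from ATPase and non-ATPase subunits, recognises and unfolds ubiquitin-tagged substrates. In lymphocytes and in cells exposed to interferon γ the constitutive catalytic subunits β1, β2 and β5 (Psmb6, Psmb7 and Psmb5) are replaced in new particles by β1i, β2i and β5i (Psmb9, Psmb10 and Psmb8). The resulting immunoproteasome changes which peptides are cut for presentation on MHC class I. The PA28 activator, encoded by Psme1 and Psme2, is induced by interferon γ as well.

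The sequences upstream of the 3 immunoproteasome genes and of Psmb5 are shown, since these genes are set beside each other further on. The windows are the 250 bases before the start in the RefSeq promoter table (GRCm38.p6), written 5′ to 3′ on the strand of the gene. Capitals mark matches to any of 3 motifs searched on both strands: the interferon stimulated response element (GAAA, any 2 bases, GAAA), TTCNNNGAA (gamma activated site, the same on both strands) and TGACNNNGC (antioxidant response element). The window of Psmb8 (β5i) lies at chr17:34197945-34198194, plus strand, and Psmb5 (β5) at chr14:54617996-54618245, minus strand. That of Psmb9 (β1i) lies at chr17:34187331-34187580, minus strand, and Psmb10 (β2i) at chr8:105938393-105938642, minus strand.
Psmb8: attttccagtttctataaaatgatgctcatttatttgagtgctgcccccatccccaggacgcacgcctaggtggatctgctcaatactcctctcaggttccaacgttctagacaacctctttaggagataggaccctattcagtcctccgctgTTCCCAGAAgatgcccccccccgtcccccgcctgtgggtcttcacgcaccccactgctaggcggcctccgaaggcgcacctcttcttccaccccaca
Psmb5: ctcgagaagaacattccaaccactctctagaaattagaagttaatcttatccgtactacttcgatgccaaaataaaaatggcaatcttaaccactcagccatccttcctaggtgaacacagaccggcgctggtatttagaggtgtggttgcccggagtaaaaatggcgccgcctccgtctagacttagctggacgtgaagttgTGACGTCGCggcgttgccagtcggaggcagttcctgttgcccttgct
Psmb9: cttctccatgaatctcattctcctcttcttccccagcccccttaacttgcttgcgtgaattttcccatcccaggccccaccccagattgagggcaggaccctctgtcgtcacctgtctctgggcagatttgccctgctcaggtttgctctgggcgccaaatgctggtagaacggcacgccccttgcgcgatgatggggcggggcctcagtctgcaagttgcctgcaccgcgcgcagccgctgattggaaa
Psmb10: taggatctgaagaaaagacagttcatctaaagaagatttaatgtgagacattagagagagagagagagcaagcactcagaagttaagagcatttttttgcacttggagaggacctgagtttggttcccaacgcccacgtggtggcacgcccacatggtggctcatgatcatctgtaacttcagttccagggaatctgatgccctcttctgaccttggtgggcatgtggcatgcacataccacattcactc
The Psmb8 window holds 1 gamma activated site match, TTCCCAGAA, whose first base is at -97 from the start. That of Psmb5 holds 1 antioxidant response element match, TGACGTCGC at -47. Those of Psmb9 and Psmb10 hold none of the 3 motifs. A promoter entry was found for 41 of the 49 genes, in 44 windows of 300 bases that run from 250 before to 50 after the start. The missing ones are Psma8, Psmb1, Psmb2, Psmb7, Psmc3, Psmd3, Psmd7 and Psmg2. The interferon stimulated response element was present in 4 of the 44 windows (9.09%; Psmb3, Psmd4, Psmd9 and Psme1) and in 3.44% of 32851 windows of all genes. The gamma activated site was present in 3 (6.82%; Psmb8, Psmd2 and Psmg1) against 8.3%, and the antioxidant response element in 6 (13.6%; Psmb5, Psmb6, Psmc6, Psmd9, Psmd12 and Psme4) against 12.4%. In no member window did matches of different motifs overlap. A match describes these letters only and does not show that a factor binds there.

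The sort genes were read before the proteasome genes. Cd4 stood at 8.76, 9.97 and 9.72 in the CD4 libraries and at 6.00 to 6.16 in the other 9, and the T cell gene Cd3d at 10.89 to 12.17 in all 12. Cd8b1, which encodes CD8β, stood at 13.80 and 13.62 in CD8 2 and CD8 3 but at 8.57 in the library labelled CD8 1, and at 13.91 in the library labelled γδ 1 against 8.29 and 8.14 in γδ 2 and γδ 3. The γδ T cell gene Cd163l1 stood at 8.23 in the library labelled CD8 1 and at 6.11 in the library labelled γδ 1, against 8.57 and 8.48 in γδ 2 and γδ 3. Both libraries go against their labels, so counts of calls are given as labelled and with them left out. The array names fall into 2 series, H for replicate 1 of every fraction and B for replicates 2 and 3. Whether the 3 collections of a fraction used separate mice is not stated, and p-values therefore reflect only the spread among these libraries, which could be technical.

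Many proteasome genes differed between the array series. In 16 of 49 genes all 4 arrays of replicate 1 lay below the other 8 arrays, against 11.5% of all 16942 genes, and in 3 genes all 4 lay above, against 12.2%. The average shift from series B to series H was larger than the range of the 4 fraction means within series B in 28 of 49 proteasome genes and in 35.5% of all genes. Psmb4, the β7 subunit of the core, showed one of the largest shifts. It stood at 10.23, 9.79, 9.99 and 10.04 in replicate 1 of DN, CD4, CD8 and γδ and at 11.31 to 12.13 in the other 8 libraries, a mean shift of -1.59. Psmd11, a 19S lid subunit, went the other way, with 11.95, 12.53, 12.48 and 12.07 in replicate 1 and 10.97 to 11.39 in the others (mean shift 1.10). Among the immunoproteasome genes Psmb10 lay below in replicate 1 (mean shift -1.19), while Psmb8 and Psmb9 overlapped between the series (-0.23 and -0.12). Replicate 1 and series H coincide in every fraction, so what is particular to either cannot be told apart.

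**Figure D1:**
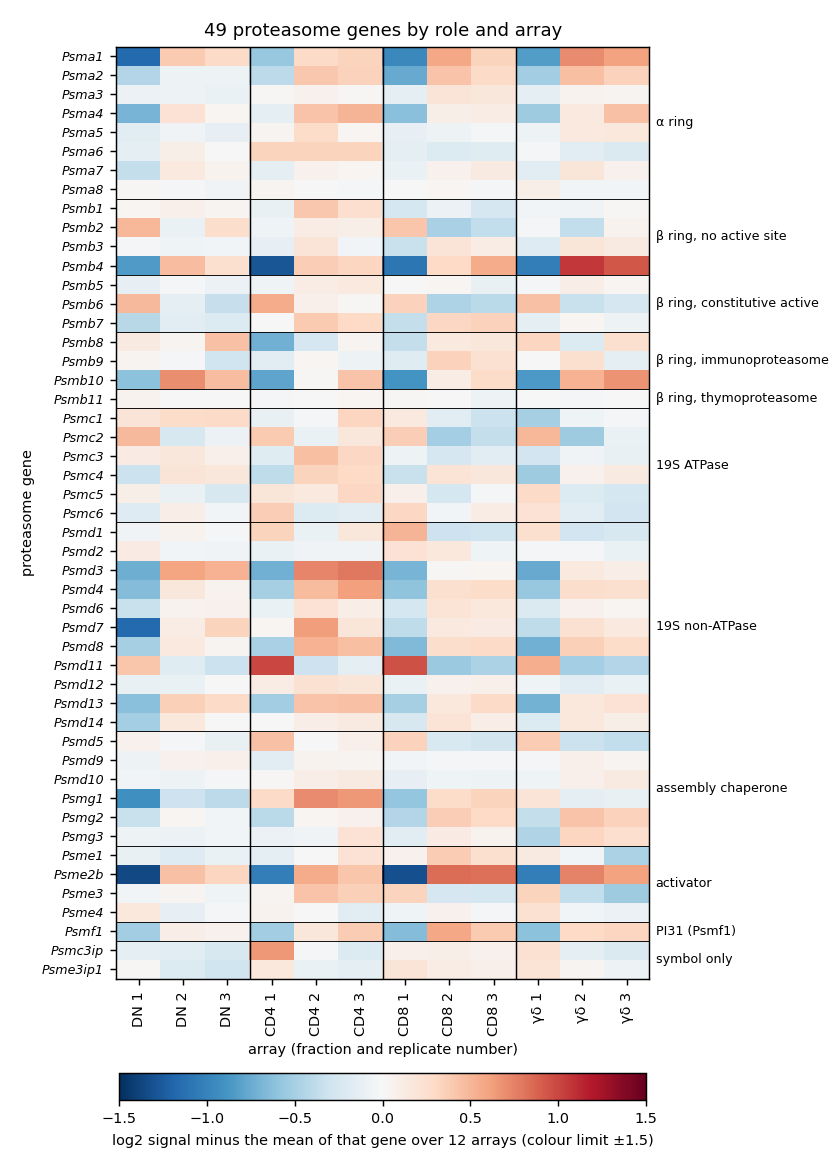
Log2 signal of each of 49 proteasome genes (rows, grouped by role) on each of 12 arrays (columns, by fraction and replicate number), after the mean of the gene over the 12 arrays was taken off; red is above and blue below that mean, with the colour limited at ±1.5. Replicate 1 of each fraction stands apart in several genes, such as Psmb4 and Psmd11, and the 3 CD4 arrays are above the mean for Psma6.

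**Figure D2:**
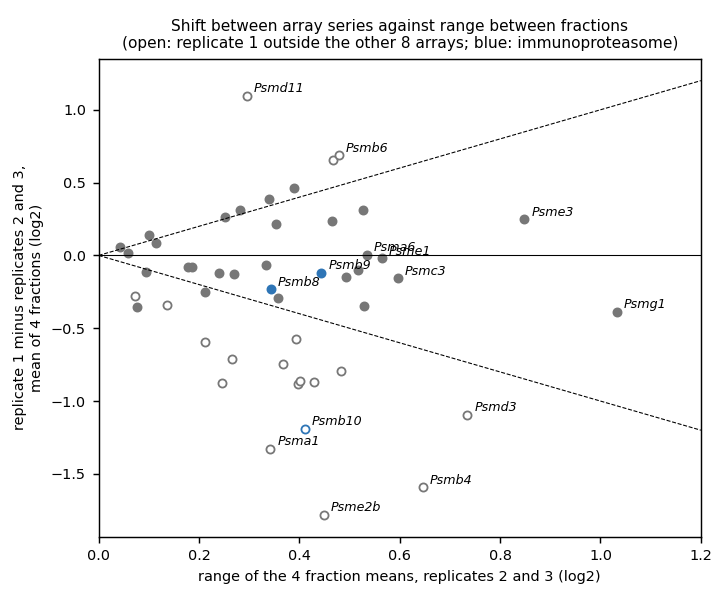
Mean shift of replicate 1 (series H) from replicates 2 and 3 (series B) in log2 units (vertical axis) against the range of the 4 fraction means within series B (horizontal axis), 1 point a gene. Open points are the 19 genes whose replicate 1 arrays all lie outside the other 8, blue marks Psmb8, Psmb9 and Psmb10, and outside the dashed lines the shift is the larger of the 2 quantities.

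Differences between fractions were small and few passed the test. The range of the 4 fraction means had a median of 0.29 over the 49 genes (0.02 to 1.09), against 0.12 over all genes, whose probes were dimmer, with a median level of 6.22 against 8.25. The CD4 fraction had the highest of the 4 means in 28 proteasome genes and in 30.8% of all genes, and DN had the lowest in 25 and in 34.3%. Within replicates 2 and 3 CD4 was highest in 25 (27.3% of all genes) and DN lowest in 17 (29.6%). Without the libraries labelled CD8 1 and γδ 1, CD4 was highest in fewer members than in either of these counts. Only DN and CD4 then keep a library of series H, and the order over all genes was not counted there. As labelled, 1 member, Psma6, passed the F test over the 4 fractions (adjusted p = 0.0117, limma), where 1.17% of all genes passed. Once the libraries labelled CD8 1 and γδ 1 were dropped these were 7 members, Psma3, Psma6, Psmd12, Psme3, Psmg1, Psmb7 and Psmd10, at 14.7% of all genes.

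Psma6 encodes α1, a subunit of the outer ring of the core. Its level was 11.02, 11.25 and 11.17 in DN, 11.50, 11.50 and 11.51 in CD4, 11.03, 10.96 and 10.98 in CD8 and 11.14, 11.01 and 10.95 in γδ libraries. The 3 CD4 values lay above the other 9. The log2 difference was -0.35 ± 0.06 for DN minus CD4 (SE; limma, adjusted p = 0.0228), 0.51 ± 0.06 for CD4 minus CD8 (0.00479) and 0.47 ± 0.06 for CD4 minus γδ (0.00723). It was the one member called in each of these 3 comparisons, where 2.28%, 1.07% and 1.15% of all genes were called. The call in DN minus CD4 was lost when DN 3 or any 1 of the 3 CD4 libraries was left out (adjusted p 0.0573 to 0.0955), and that of the F test when CD4 2 or CD4 3 was (0.0813 and 0.0844). On the deposited value table, after log2 and quantile normalisation, the differences were -0.36, 0.52 and 0.48 and none was called (adjusted p = 0.31, 0.259 and 0.264). No member was called on that table in any comparison, where 2.61% of all genes were called in DN minus CD4, 0.82% in CD4 minus CD8, 1.09% in CD4 minus γδ, 0.0177% in DN minus CD8 and in DN minus γδ, 0% in CD8 minus γδ and 1.24% in the F test.

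The assembly factor Pomp, which helps the β ring to mature and is not itself a subunit, was called in the same comparisons. It stood at 7.01, 7.37 and 7.23 in DN, 7.57, 7.73 and 7.74 in CD4, 7.05, 6.87 and 6.998 in CD8 and 7.07, 7.22 and 7.24 in γδ libraries. The CD4 values lay above the other 9 for this gene too. The log2 differences were -0.48 ± 0.09 for DN minus CD4 (adjusted p = 0.0382), 0.70 ± 0.09 for CD4 minus CD8 (0.00826) and 0.50 ± 0.09 for CD4 minus γδ (0.0427). Whether these calls hold when 1 library is left out was not examined for Pomp. Pomp was the one gene called as labelled among 16 measured partners of the proteasome (deubiquitinases, shuttle factors, chaperones and regulators), all of them outside the symbol rule.

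DN cells were gated without CD4 and CD8β, while Cd8a, which encodes CD8α, stood at 14.42, 14.35 and 14.22 in DN libraries. In CD4 libraries Cd8a stood at 7.75, 7.94 and 7.96. In the comparison of DN with CD4 (helper) T cells, 40 of 49 proteasome genes had a difference below 0, against 56.1% of all genes. The median was -0.13 over the members and -0.01 over all genes, and -0.30 against -0.02 when arrays were scaled to 1 median in place of quantile normalisation. Without DN 1 the members' median was -0.08, with 32 of 49 below 0 against 57.8% of all genes. Without CD4 1 it was -0.20, with 40 below 0 against 53.4% of all genes. All 8 α ring genes, the 3 constitutive catalytic genes, 5 of 6 ATPase genes and 10 of 11 non-ATPase genes were below 0. Psma6 was the one that passed, and 6 members had an unadjusted p under 0.05, against 13.9% of all genes. DN values lay below all CD4 values in 9 members (13.9% of all genes) and above all of them in 2, Psmb8 and Psmd2 (10.8%).

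**Figure D3:**
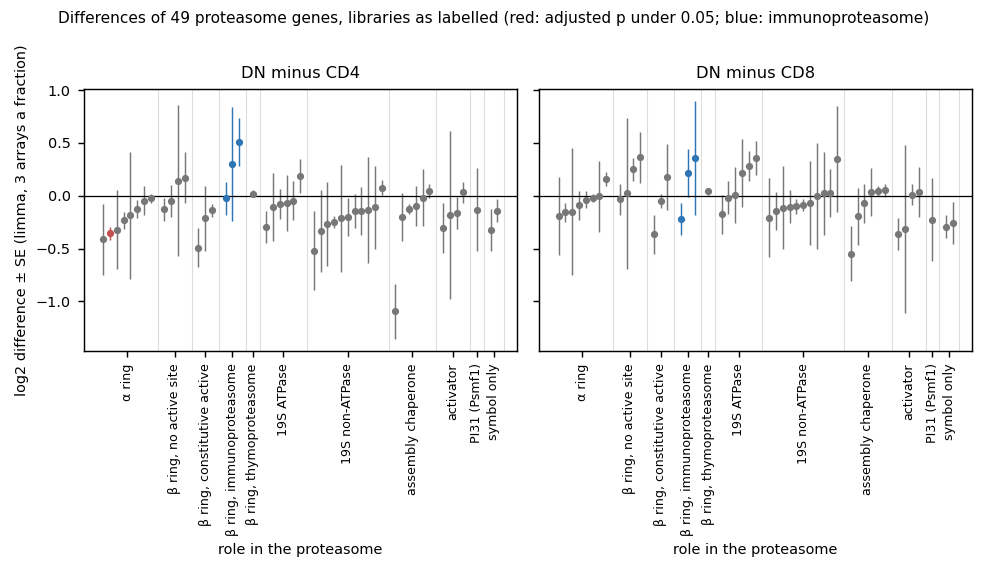
Log2 differences with their standard errors (limma, 3 arrays a fraction) of 49 proteasome genes, grouped by role along the horizontal axis, for DN minus CD4 (left) and DN minus CD8 (right). In DN minus CD4, 40 points lie below 0, Psma6 (red) is the called gene, the lowest point is Psmg1 at -1.09, and Psmb8 is the highest of the blue immunoproteasome points at 0.51.

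Psmg1, a chaperone that pairs α subunits during core assembly, had the largest difference of the members. It stood at 7.32, 7.93 and 7.85 in DN, 8.53, 8.95 and 8.89 in CD4, 7.65, 8.52 and 8.57 in CD8 and 8.43, 8.10 and 8.13 in γδ libraries. All DN values lay below all CD4 and γδ values. DN minus CD4 was -1.09 ± 0.26 and did not pass the test as labelled (adjusted p = 0.0708). It passed with the replicate number as a block, as did Psmd4, Psmd12, Psma4 and Psmb7 beside Psma6, so that 6 members were called where 5.19% of all genes were. It also passed after dropping the libraries labelled CD8 1 and γδ 1 (-1.09 ± 0.18, adjusted p = 0.00792).

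Without those libraries, which enter this comparison through the shared estimate of spread, 5 members were lower in DN than in CD4: Psma6, Psmg1, Psmd12, Psma3 and Psmb7, where 10.6% of all genes were called and 5.54% in that direction. Psmd12, a 19S lid subunit, stood at 6.56, 6.56 and 6.66 in DN, 6.78, 6.89 and 6.84 in CD4, 6.56, 6.73 and 6.75 in CD8 and 6.60, 6.51 and 6.57 in γδ libraries. CD4 values lay above all others, and DN minus CD4 was -0.25 ± 0.04 (adjusted p = 0.00854). Psmb7 (β2), the trypsin-like site of the constitutive core, stood at 6.88, 7.13 and 7.09 in DN, 7.29, 7.69 and 7.60 in CD4, 6.94, 7.61 and 7.65 in CD8 and 7.15, 7.32 and 7.22 in γδ libraries. DN lay below CD4 and γδ, and the library labelled CD8 1 lay within the DN range (DN minus CD4 -0.49 ± 0.11, adjusted p = 0.0318). Psma3, another α ring gene, moved little: it stood at 6.35, 6.36 and 6.33 in DN, 6.46, 6.49 and 6.45 in CD4, 6.28, 6.62 and 6.60 in CD8 and 6.30, 6.49 and 6.47 in γδ libraries, where the libraries labelled CD8 1 and γδ 1 were the lowest of the 12. DN minus CD4 was -0.12 ± 0.02 (adjusted p = 0.0135).

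**Figure D4:**
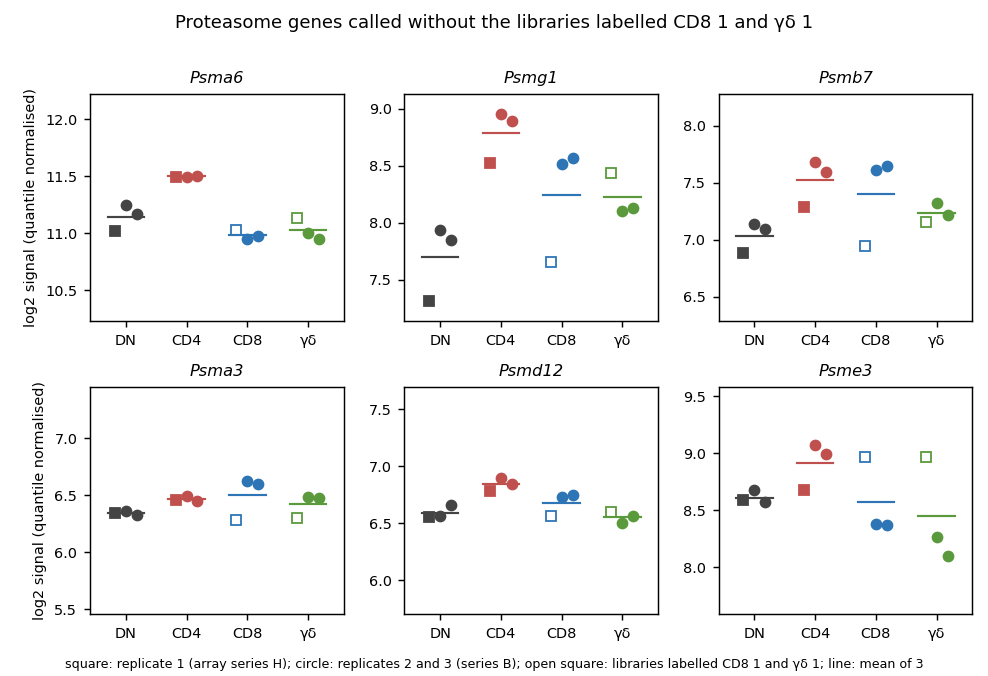
Log2 signal (vertical axis, each panel spanning 2 log2 units) of 6 proteasome genes on each array, by fraction (horizontal axis); squares are replicate 1, circles replicates 2 and 3, open squares the libraries labelled CD8 1 and γδ 1, and lines the mean of 3. For Psma6 and Psmd12 the 3 CD4 points lie above all others, and for Psmg1 the 3 DN points lie below those of CD4 and γδ.

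Against the CD8 fraction, 0 members were called as labelled, where 0.0177% of all genes were called by limma. At an unadjusted p under 0.05 there were 4 members and 8.75% of all genes. The median difference was -0.03 over the members and -0.01 over all genes, and 28 of 49 members were below 0, against 55.6% of all genes. DN lay above all CD8 values in 3 members (5.99% of all genes) and below them in 3 (7.01%), and without the library labelled CD8 1 in 12 (22.3%) and 17 (27.1%). Once the libraries labelled CD8 1 and γδ 1 were dropped, 4 members were called at 12.9% of all genes: Psma3 (-0.27 ± 0.02, adjusted p = 0.000592), Psmb7 (-0.59 ± 0.12, 0.0206) and Psmg1 (-0.85 ± 0.20, 0.0312) were lower in DN (6.95% of all genes) and Psmc1 (0.49 ± 0.12, 0.0403) was higher (5.98%). Psmc1, an ATPase of the 19S base (Rpt2), stood at 10.89, 10.97 and 10.98 in DN, 10.59, 10.67 and 11.02 in CD4, 10.85, 10.54 and 10.38 in CD8 and 10.20, 10.63 and 10.67 in γδ libraries. DN lay above all CD8 and γδ values, with the library labelled CD8 1 the closest. Because CD8 is then left with series B alone, the series was also taken as a block in this setting. The 4 calls remained among the 12 then made (26.5% of all genes), with differences of -0.27, -0.50, -0.68 and 0.55.

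Against the γδ fraction, 0 members were called as labelled (2 at an unadjusted p under 0.05, against 4.43% of all genes; 0.0118% called by limma), and 0 after dropping the libraries labelled CD8 1 and γδ 1 (0.968%), where 10 had an unadjusted p under 0.05, against 11.7% of all genes. The lowest adjusted p there was 0.0676, for Psma3. The block on the array series in that setting gave 6 calls at 6.26% of all genes. As labelled, DN lay above all γδ values in 4 members (5.98%) and below them in 2, Psmg1 and Psmb7 (6.81%), and without the library labelled γδ 1 in 9 (18.6%) and 16 (19.4%). DN minus γδ for Psma1, an α ring gene below in replicate 1 of every fraction, was -0.33 as labelled and -0.82 with those libraries left out, which leaves γδ with series B only.

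CD4 cells were also compared with the CD8 and γδ fractions. As labelled, 35 of the 46 members other than the immunoproteasome genes were higher on average in CD4 than in CD8, and 35 than in γδ, with medians of 0.13 and 0.15, where 47.7% and 52% of all genes were higher. CD4 lay above all CD8 values in 5 members (6.73% of all genes) and below them in 0 (5.47%), and above all γδ values in 3 (8.07%) and below them in 0 (6.46%). Without the library labelled CD8 1 the first counts were 13 (18.8%) and 8 (19.6%), and without the library labelled γδ 1 the others were 11 (23.2%) and 6 (18.1%). Once the libraries labelled CD8 1 and γδ 1 were dropped the counts above 0 were 24 and 24 of 46, against 49.1% and 57.5% of all genes, and the medians 0.00 and 0.02. CD8 and γδ then hold series B only, while CD4 keeps a library of series H. Within replicates 2 and 3 the counts were 28 and 32 of 46, against 46.6% and 55.3% of all genes, with medians of 0.13 and 0.14. For all 49 members, dropping the 2 libraries gave medians of -0.03 against CD8 and -0.004 against γδ. Blocking on the series in that setting gave 0.06 and 0.14, where the medians of all genes were -0.006 and 0.008. The part of the series in the lower counts was not tested further. The calls after dropping the 2 libraries were 3 against CD8 (5.39% of all genes), of which 2 were higher (2.8%) and 1 lower (2.6%) in CD4, and 5 against γδ (8.99%), all higher in CD4 (4.37%). Psme3, the nuclear activator PA28γ, was among both. It stood at 8.59, 8.67 and 8.57 in DN, 8.68, 9.07 and 8.99 in CD4, 8.97, 8.38 and 8.37 in CD8 and 8.97, 8.27 and 8.10 in γδ libraries. The libraries labelled CD8 1 and γδ 1 are above the others of their fractions and overlap CD4. Without them CD4 minus CD8 was 0.54 ± 0.11 (adjusted p = 0.0385) and CD4 minus γδ 0.73 ± 0.11 (0.00705), where as labelled they were 0.34 ± 0.23 and 0.47 ± 0.23.

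Psma6 was called in both of these comparisons without the 2 libraries (0.53 and 0.52, adjusted p = 0.00359 and 0.00227), and Psma3 was lower in CD4 than in CD8 (-0.15 ± 0.02, 0.0176). Psmd12 (0.30 ± 0.05, 0.00625), Psmd5 and Psmc5 were higher in CD4 than in γδ. Psmd5, a chaperone of 19S base assembly, stood at 8.30, 8.22 and 8.13 in DN, 8.69, 8.25 and 8.32 in CD4, 8.58, 8.01 and 7.97 in CD8 and 8.62, 7.92 and 7.88 in γδ libraries. Replicate 1 was the highest of its fraction in all 4, and CD4 minus γδ was 0.52 ± 0.12 (adjusted p = 0.0409), or 0.43 ± 0.07 (0.0058) with the array series as a block. Its second probe, dimmer at 6.05 to 6.37, gave 0.08 as labelled against 0.28 for the first. Psmc5, the ATPase Rpt6, stood at 8.34, 8.15 and 8.02 in DN, 8.43, 8.41 and 8.56 in CD4, 8.34, 7.996 and 8.23 in CD8 and 8.55, 8.05 and 7.99 in γδ libraries, and CD4 minus γδ was 0.45 ± 0.11 (0.0448). The library labelled γδ 1 lay within the CD4 range of that gene.

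Between CD8 and γδ cells, 0 members and 0 genes in all (0%) were called as labelled by limma, with 2 members at an unadjusted p under 0.05, against 1.94% of all genes. CD8 lay below all γδ values in 2 members, Psmb1 and Psmd10 (2.01% of all genes), and above them in 0 (2.36%). With both libraries dropped, which leaves 2 arrays a side, these were 17 (27.9%) and 16 (36.7%). Without the 2 libraries 1 member was called, Psma3, which was higher in CD8 (0.13 ± 0.03, adjusted p = 0.0284; 7.37% of all genes called, 3.61% in that direction). Psmd10, the assembly chaperone gankyrin, passed the F test in that setting but no single comparison (adjusted p = 0.0416). It stood at 6.21, 6.17 and 6.23 in DN, 6.27, 6.35 and 6.38 in CD4, 6.13, 6.18 and 6.17 in CD8 and 6.19, 6.33 and 6.38 in γδ libraries, a spread of 0.25 over the 12 libraries.

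Taking the replicate number or the array series as a block changed the counts of members called. In DN minus CD4, 6 members were called with either block, at 5.19% (replicate block) and 8.45% (series block) of all genes. Both blocks gave 0 in DN minus CD8 (0.13% and 0.466% of all genes), 0 in DN minus γδ (0.0295% and 0.106%) and 0 in CD8 minus γδ. In CD4 minus CD8 they gave 2 members, Psma6 and Psmb6 (2.23%), and 3, with Psma4 added (3.16%). In CD4 minus γδ both gave 2, Psma6 and Psmd12 (2.94% and 4.31%). The F test gave 1 with the replicate block (2.48%) and 3 with the series block, Psma6, Psmd12 and Psme3ip1 (4.75%). Replicates 2 and 3 alone, without series H, gave 16, 19, 13, 20, 19 and 9 members in the 6 comparisons in the order DN minus CD4, CD8 and γδ, CD4 minus CD8 and γδ and CD8 minus γδ, against 28.4%, 32.6%, 12.1%, 23.5%, 30.3% and 27.4% of all genes, and 27 in the F test against 41.9%. The series block after dropping the libraries labelled CD8 1 and γδ 1 gave 13, 12, 6, 15, 13 and 7 in that order, against 25.4%, 26.5%, 6.26%, 16.7%, 22% and 19.9%, and 20 in the F test against 34.8%.

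None of the 3 immunoproteasome genes was called in any of the 6 comparisons, as labelled or without the 2 libraries. Psmb8 (β5i) stood at 12.07, 11.98 and 12.37 in DN, 11.22, 11.69 and 11.97 in CD4, 11.58, 12.08 and 12.11 in CD8 and 12.26, 11.74 and 12.17 in γδ libraries. All DN values lay above all CD4 values, though DN 2 and CD4 3 were almost equal. DN minus CD4 was 0.51 ± 0.23 (95% interval -0.00 to 1.03, adjusted p = 0.362), the highest of the 49 members, where the median of the other 46 was -0.14. It was 0.31 without CD4 1, 0.34 within replicates 2 and 3, where Psmb10 was higher, and 0.19 with each array scaled to 1 median. DN minus CD8 was 0.21 (-0.30 to 0.73) and DN minus γδ 0.08 (-0.43 to 0.60). With both libraries dropped these were 0.04 and 0.18, and with each array scaled to 1 median, -0.18 and -0.15. CD4 minus CD8 was -0.30, the lowest of the 49 members, and CD4 minus γδ was -0.43, next to the lowest. These 2 differences were -0.47 and -0.33 with both libraries dropped, and -0.26 and -0.13 within replicates 2 and 3. As labelled, CD4 minus CD8 was -0.20 for Psmb9 and 0.06 for Psmb10, and CD4 minus γδ was -0.09 and -0.23.

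Psmb9 (β1i) stood at 11.17, 11.12 and 10.84 in DN, 10.98, 11.17 and 11.07 in CD4, 10.95, 11.48 and 11.37 in CD8 and 11.13, 11.38 and 10.99 in γδ libraries. Every fraction overlapped every other as labelled. Without the library labelled CD8 1, the CD8 values lay above all DN and all CD4 values, as in 27.1% and 19.6% of all genes. The log2 difference was -0.03 for DN minus CD4 (95% interval -0.37 to 0.32) and -0.22 for DN minus CD8 (-0.57 to 0.12). Without the library labelled CD8 1 the latter was -0.38 (-0.71 to -0.05, adjusted p = 0.131), and within replicates 2 and 3 it was -0.44 (adjusted p = 0.0681). Psmb10 (β2i) followed the array series and stood at 7.31, 8.63 and 8.39 in DN, 7.13, 7.94 and 8.35 in CD4, 7.03, 8.03 and 8.20 in CD8 and 7.06, 8.45 and 8.60 in γδ libraries. Its intervals were wide, with DN minus CD4 at 0.30 (-0.92 to 1.52). Within replicates 2 and 3 that difference was 0.36, and DN minus γδ was -0.02.

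Psmb5 (β5), the main target of the drug bortezomib, varied little, at 11.75, 11.86 and 11.79 in DN, 11.81, 11.98 and 12.02 in CD4, 11.87, 11.90 and 11.76 in CD8 and 11.85, 11.98 and 11.91 in γδ libraries. Psmb6 (β1) stood at 11.68, 11.06 and 10.85 in DN, 11.76, 11.27 and 11.22 in CD4, 11.54, 10.74 and 10.79 in CD8 and 11.64, 10.87 and 10.94 in γδ libraries, so that replicate 1 was above the other 8 libraries. CD4 minus CD8 for Psmb6 was 0.39 ± 0.31 and not called, and 0.39 ± 0.07 with the replicate number as a block (adjusted p = 0.0438; 2 members and 2.23% of all genes called). The mean of Psmb8, Psmb9 and Psmb10 minus that of Psmb5, Psmb6 and Psmb7 was 0.08, 0.56 and 0.62 in DN, -0.51, -0.05 and 0.19 in CD4, -0.27, 0.45 and 0.49 in CD8 and -0.07, 0.47 and 0.56 in γδ libraries. Within each replicate number the CD4 library had the lowest value and the DN library the highest; the zero of this scale depends on the probes and has no meaning, and no test was made.

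**Figure D5:**
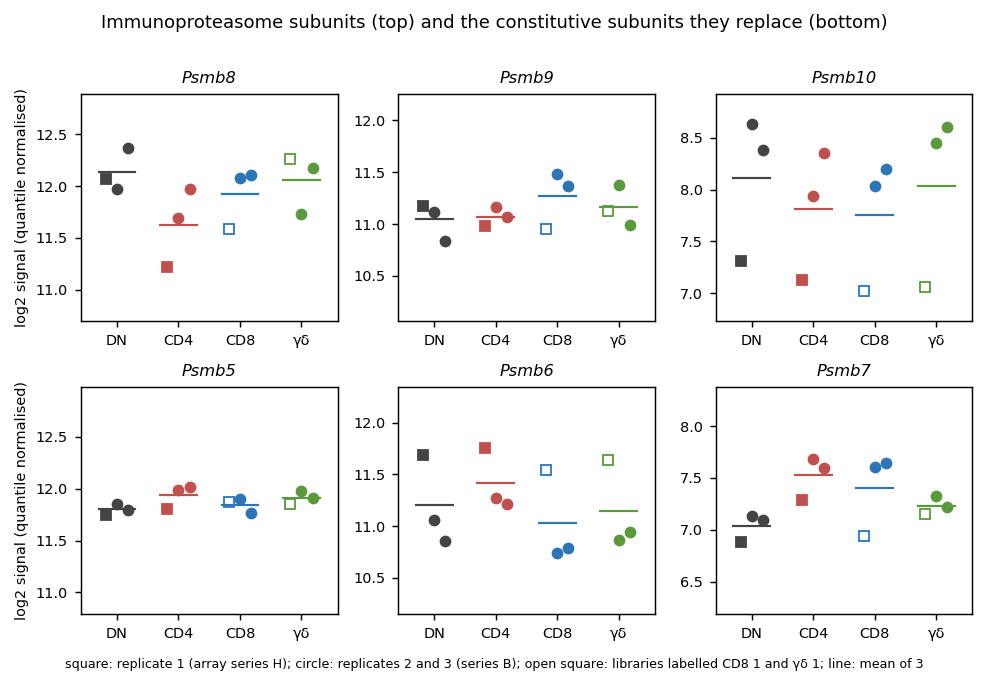
Log2 signal (vertical axis, each panel spanning 2.2 log2 units) of the immunoproteasome genes Psmb8, Psmb9 and Psmb10 (top) above the constitutive genes Psmb5, Psmb6 and Psmb7 that they replace (bottom), by fraction (horizontal axis); symbols as squares for replicate 1, circles for replicates 2 and 3, open squares for the libraries labelled CD8 1 and γδ 1, and lines for the mean of 3. Psmb10 and Psmb6 separate by replicate number, the first low and the second high in replicate 1, and the DN points of Psmb7 lie below those of CD4.

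B cell genes moved with the fractions that the immunoproteasome genes were compared across. The mean level of 18 measured B cell and MHC class II genes (of 19 listed) was 8.85, 9.42 and 9.43 in DN, 6.86, 6.62 and 6.69 in CD4, 8.36, 6.57 and 6.58 in CD8 and 6.86, 8.98 and 9.04 in γδ libraries. Ms4a1, which encodes CD20, stood at 10.76 to 11.39 in DN and at 6.40 to 7.29 in CD4 libraries. Of these 18 genes, 1 was called higher in DN against CD4 as labelled and 15 without the 2 libraries. Of all genes, 0.832% and 5.06% were called higher in DN in these settings. B cells also use the immunoproteasome. Psmb8 stood at 11.22 to 12.26 in the 6 libraries with the lowest B cell means and at 11.58 to 12.37 in the other 6. Markers of other cells were also called higher in DN than in CD4 without the 2 libraries, at the same 5.06% of all genes. They were 8 of 16 epithelial genes (Cdh1, Epcam and Reg3b among them, Reg3b also as labelled). With them came 3 of 7 dendritic cell genes (Itgax, Batf3 and Siglech) and 2 of 6 plasma cell genes (Derl3 and Mzb1). The mean level of the epithelial list was 6.77 to 6.97 in DN and 6.37 to 6.42 in CD4 libraries, and that of the dendritic list 6.78 to 6.80 and 6.30 to 6.45. Itgax stood at 8.16 to 8.64 in DN and at 5.86 in each CD4 library, and the dendritic gene Zbtb46 at 6.38 to 6.46 and 6.34 to 6.48. Bst2 of the dendritic list went the other way on average, at 7.56 to 8.27 in DN and 7.96 to 8.77 in CD4 libraries (difference -0.46 as labelled). Of the macrophage list 1 of 8 genes (Ccr2), of the stromal list 2 of 6 (Acta2 and Col1a2) and of the cell cycle list 0 of 17 were lower in DN. Of all genes, 5.54% were called lower in DN without the 2 libraries. The part of B cell, epithelial or dendritic RNA in the differences of the proteasome genes was not tested. In such sorted pools, fewer cells of a type and less RNA per cell cannot be told apart.

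Of 8 measured partners of the immunoproteasome in interferon signalling and MHC class I loading (of 9 listed), 0 were called in the 6 comparisons as labelled by limma, with an adjusted p of 0.109 at the lowest in DN minus CD4. Without the 2 libraries Irf8, a transcription factor of B cells and myeloid cells, was higher in DN than in CD4 by 3.22 ± 0.21 (adjusted p = 8.23e-05). It stood at 9.52, 10.33 and 10.30 in DN, 6.98, 6.77 and 6.74 in CD4, 9.26, 6.54 and 6.50 in CD8 and 6.62, 9.47 and 9.44 in γδ libraries, high in the same libraries as the B cell list. Tapbp, the peptide-loading protein tapasin, was lower in CD4 than in γδ (-0.85 ± 0.20, adjusted p = 0.0395).

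Among the proteasome partners without the 2 libraries, Sem1, a small 19S lid subunit, was lower in DN than in CD4 (-0.32 ± 0.07, adjusted p = 0.0231), as was Ngly1 (-0.40 ± 0.10, 0.0425), the glycanase that activates the transcription factor of proteasome genes Nfe2l1. Ublcp1, a phosphatase that acts on the 19S particle, stood higher in DN against CD4 (1.01 ± 0.22, 0.0276) and CD8 (1.03 ± 0.25, 0.0345), and lower in CD4 than in γδ (-1.30 ± 0.25, 0.0183). Ngly1 (-0.58 ± 0.11, 0.0134), the ubiquitin shuttle Ubqln2 (-0.43 ± 0.09, 0.0225) and the 19S-associated Txnl1 (-0.34 ± 0.09, 0.0488) were lower in DN against CD8. Ublcp1 stood at 8.41, 9.23 and 9.22 in DN, 8.08, 7.78 and 7.96 in CD4, 8.33, 8.02 and 7.83 in CD8 and 7.73, 9.15 and 9.33 in γδ libraries. Its 5 highest libraries are those with the 5 highest B cell means.

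Psme1 (PA28α) stood at 11.21, 11.12 and 11.22 in DN, 11.17, 11.33 and 11.54 in CD4, 11.38, 11.70 and 11.56 in CD8 and 11.45, 11.28 and 10.85 in γδ libraries. DN lay below all CD8 values, and DN minus CD8 was -0.36 ± 0.15 (adjusted p = 0.545). A second Psme1 probe gave -0.33, and it stood at 7.97 to 8.27 in replicate 1 and 9.27 to 10.04 in the others, a split that the brighter probe does not show. Psme2b stood at 8.73, 10.52 and 10.41 in DN, 9.05, 10.64 and 10.50 in CD4, 8.76, 10.92 and 10.91 in CD8 and 9.05, 10.83 and 10.69 in γδ libraries, the largest series shift of the 49 (-1.78). Psma7, a core α subunit, kept its fraction means within 0.09 of each other.

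Of the dimmest members, Psma8, the α subunit of the testis proteasome, stood at 5.80 to 5.94 and Psmb11, the catalytic subunit of thymic cortical epithelium (β5t), at 5.84 to 5.97 in all 12 libraries. Their fraction means stayed within 0.02 and 0.04 of each other. The second probes of Psmd3 and Psmd8 were as dim (5.99 to 6.18 and 5.77 to 5.94), and for Psmd3 the series shift of the brighter probe, 5.87 to 5.93 in replicate 1 against 6.65 to 7.42, did not show in the second.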

How the data were processed

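RNA of 12 sorted T cell samples was hybridised to a 1-colour mouse oligonucleotide chip. Per the file headers, the deposited scanner files hold spot median intensity at 635 nm without normalisation. The authors' deposited value table holds intensity too, with a median of 25 on each array and empty cells for undetected spots; how it was made is not given in the sources used here. Spots were corrected with normexp (offset 50, limma 3.58.1 in R 4.3.3), log2 transformed and quantile normalised between arrays, which narrows the differences of dim genes. 25 probes marked by the scanner software were left out. Detection was read from that table, whose listed values mark a probe as present, and the brightest probe was kept for each symbol. lmFit and eBayes were fitted to 4 fraction means over 12 arrays, two-sided, with Benjamini-Hochberg adjustment over 16942 genes, and a gene was called at adjusted p under 0.05. Symbols came from the platform's probe table, in which 20690 of 23473 probes have a symbol entry and 2783 have none. The 12 arrays listed 18930 to 21394 probes each, and the few arrays per fraction limit the precision. In data simulated for DN against CD4 over 16942 genes, 76 of 100 changes of 1 log2 unit and 93 of 100 of 2 were recovered, with 8 false calls. The simulated noise was independent between arrays and held no shift between array series. The median size of that shift was 0.31 in members and 0.10 in all genes, so these rates may not hold for the members.

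Every proteasome gene could be named. Values on each array were given for the catalytic genes, Psme1, Psme2b and up to 8 called genes a comparison, and up to 4 called partners a comparison could be named. Psma1, Psmb4, Psmd11, Ms4a1 and the second probes were picked with their values in view. The members and gene lists were chosen with earlier results of these data known. Same-numbered arrays of different fractions correlated above 0.1 in 18 of 18 pairs (0.10 to 0.735) after fraction means were taken off. The main fit took no account of this pairing. The replicate number and the array series were blocks in alternative fits only. Number 1 is array series H in every fraction. Correlations of 0.997 to 0.998 linked replicates 2 and 3 within fractions. Promoters were taken from RefSeq (GRCm38.p6), and figures were drawn with matplotlib 3.10.9 in Python 3.11.15.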

Additional observations from a re-analysis of the deposited data

How the results depend on the processing

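Members called in DN vs CD4, DN vs CD8, DN vs γδ, CD4 vs CD8, CD4 vs γδ, CD8 vs γδ and the F test numbered 1, 0, 0, 1, 1, 0 and 1 as labelled and with median scaling. Median scaling called 1.97% of all genes in DN vs CD4. The members called numbered 0 throughout on the deposited value table, 6, 0, 0, 2, 2, 0 and 1 with the replicate block, and 6, 0, 0, 3, 2, 0 and 3 with the array series block. Without the libraries labelled CD8 1 and γδ 1 they were 5, 4, 0, 3, 5, 1 and 7, and with the array series block as well 13, 12, 6, 15, 13, 7 and 20. Replicates 2 and 3 alone gave 16, 19, 13, 20, 19, 9 and 27 (12.1% to 41.9% of all genes), where the spread may be technical only. Without a detection filter, and with the mean of probes, CD4 vs γδ had 2 (1.08% and 1.2% of all genes) and the other counts stayed at their values as labelled. Leaving out 1 replicate at a time gave 0 to 4, 0 to 3, 0 to 0, 1 to 3, 1 to 3, 0 to 0 and 0 to 4, with the highest number without CD8 replicate 1 in the first, the second and the last, and without CD4 replicate 1 for CD4 vs CD8 and CD4 vs γδ. The 4 members in DN vs CD4 came where 5.85% of all genes were called and the 0 where 0.756% to 1.99% were, and in the F test at 6.15% and at 0.449% to 0.519%. The 3 members came at 6.79% of all genes in DN vs CD8, 1.34% in CD4 vs CD8 and 1.77% in CD4 vs γδ. DN vs CD4 fell to 0 without DN 3 or any CD4 library, and the F test to 0 without CD4 2 or CD4 3. DN vs CD4 and CD4 vs γδ had 2 each without γδ replicate 1 (4.57% and 4.22% of all genes). CD4 vs γδ also had 2 without CD8 replicate 1 (1.97%).

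For 27 log2 differences, those of the immunoproteasome genes for DN and of the members called in a comparison, the alternatives gave values of which 479 kept direction and side of the threshold, 64 passed it newly, 7 lost it and 17 changed sign, all of these uncalled. Psma3, CD4 minus CD8, ranged from -0.15 to 0.025 when 1 replicate was left out (0.025 without CD8 2, 0.013 without CD8 3). Psmb9, DN minus CD4, ranged from -0.090 to 0.077 (0.077 without DN 3, 0.023 without CD4 2). Psmb8 was -0.18 for DN minus CD8 and -0.15 for DN minus γδ with median scaling, and ranged from -0.079 to 0.18 for DN minus γδ with 1 replicate left out (-0.035 without DN 3, -0.079 without γδ 2). Psmb10 ranged from -0.039 (without CD4 1) to 0.70 for DN minus CD4 and from -0.0068 (without CD8 1, and without both libraries) to 0.76 for DN minus CD8. For DN minus γδ Psmb10 was -0.019 in replicates 2 and 3 alone, -0.42 without both libraries, -0.049 with the series block as well, and -0.42 (without γδ 1) to 0.47 with 1 replicate left out (-0.19 and -0.067 without DN 2 and DN 3). The cause was not tested. Signal over background limits Psma8, Psmb11 and the second probes of Psmd3, Psmd5 and Psmd8. Of the members that passed a test without the 2 libraries, Psmd10 (6.13 to 6.38) and Psma3 (6.28 to 6.62) were dim as well.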
